A study of Mus musculus with 9 samples.

Results

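The miR-26 family was followed through 9 small RNA libraries from extracellular vesicles of podocytes, epithelial cells of the kidney filter. Its members were taken by name from the deposited tables of 1915 mouse miRNA identifiers. They were 3 identifiers: the guide strands mmu-miR-26a-5p and mmu-miR-26b-5p, and mmu-miR-26b-3p, the opposite strand of the miR-26b hairpin. The prefix for mouse is dropped from here on. Both guides had counts in all 9 libraries, whereas miR-26b-3p was listed at 0 in all 9.

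The cells were a conditionally immortalized mouse line, grown at a permissive temperature with interferon and then differentiated for 10 days without it. In the last step they spent 48 h in 1 of 3 media, with 3 libraries per medium. The high glucose medium held 30 mM glucose. The mannitol medium held 5.3 mM glucose with 24.7 mM mannitol and served as the control for osmolality, and the normal glucose medium held 5.3 mM glucose. All groups share the same line, the serum-containing differentiation medium and the precipitation of vesicles with a polymer reagent, which also collects other RNA carriers. A single line is a limited model of the podocyte. The protein and mRNA markers that define podocytes are not measured in a table of miRNAs, so the labelled cell type could not be checked against them. Whether replicates were separate cultures is not stated in the labels. The p-values therefore reflect only how far these samples vary, which may be technical.

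A miRNA hairpin is cut into a duplex of 2 strands. The guide strand is loaded into an Argonaute protein and directs it to mRNAs through its seed, bases 2 to 8, while the passenger strand is usually degraded. Mammalian miR-26 hairpins lie inside introns of the Ctdsp genes, which encode small phosphatases of the RNA polymerase II tail, and are transcribed with them. The guides repress, among others, Ezh2, which encodes a histone methyltransferase. They are found in many differentiated tissues, and in podocytes miR-26a has been studied as a repressor of the matrix-associated gene Ctgf.

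The arms are shown because the values below depend on how closely they resemble each other. All 5 arm sequences were matched by name in RefSeq (GRCm38.p6), and the capitals mark the seed.
miR-26a-5p: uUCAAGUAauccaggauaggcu
miR-26b-5p: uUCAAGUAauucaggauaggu
miR-26b-3p: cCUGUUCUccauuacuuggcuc
miR-26a-1-3p: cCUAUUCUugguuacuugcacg
miR-26a-2-3p: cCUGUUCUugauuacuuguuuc

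Both guides carry the seed UCAAGUA. Of 1623 identifiers in the tables with a RefSeq mature sequence, these 2 alone carried it. Counted from 1 at the 5′ end of miR-26a-5p, the guides differ at C11U and C21U, and miR-26a-5p has 22 bases against 21 in miR-26b-5p. They are identical at the other 19 positions, so a read that ends before position 21 is assigned to one or the other by position 11 alone. No source used here says how the authors' counting treated mismatches. Reads of miR-26a-5p cannot be traced to a gene, because its sequence is the same in 2 hairpins. The passenger strands differ more: miR-26a-1-3p and miR-26b-3p differ at 8 of 22 positions, and miR-26a-2-3p and miR-26b-3p at 4. Of the 3 passengers, miR-26b-3p and miR-26a-2-3p share the seed CUGUUCU.

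The 3 hairpins are shown with the arms in capitals, 5p first, because 1 arm of each was not listed in any library. All lie on the plus strand, as do their hosts in GENCODE M21, and coordinates are those of GRCm38 (mm10).
Mir26a-1: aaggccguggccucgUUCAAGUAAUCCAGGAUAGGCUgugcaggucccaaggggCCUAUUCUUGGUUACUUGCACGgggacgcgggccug
Mir26a-2: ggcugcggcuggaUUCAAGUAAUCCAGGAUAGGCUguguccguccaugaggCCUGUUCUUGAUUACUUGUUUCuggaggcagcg
Mir26b: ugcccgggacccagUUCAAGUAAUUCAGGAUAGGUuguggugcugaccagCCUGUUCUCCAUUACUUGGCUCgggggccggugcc

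Mir26a-1 lies at chr9:119031796-119031885, in intron 5 of the 7 introns of Ctdspl. Mir26a-2 lies at chr10:126995530-126995613, in intron 5 of the 7 introns of Ctdsp2, where 2 other annotated Ctdsp2 transcripts have an exon that overlaps it. Mir26b lies at chr1:74394310-74394394, in intron 4 of the 6 introns of Ctdsp1, and that intron is 564 bases long. The corresponding introns of Ctdspl and Ctdsp2 are 3283 and 1946 bases long.

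No passenger strand of the family was listed in any library. This holds for miR-26b-3p and also for miR-26a-1-3p and miR-26a-2-3p, which are not members but come from the same family of hairpins. The smallest count that any library lists is 10, so a listed 0 was taken to stand for 0 to 9 reads. No source used here says why smaller counts are missing. All limits for unlisted strands given here and below rest on that reading. For miR-26b-3p this limit is 3.52 to 12.4 CPM, depending on the library. CPM here means the count scaled to the sum of all miRNA counts of the library.

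Set against its own guide, miR-26b-3p can have reached at most 1.16% of the miR-26b-5p count in high glucose replicate 3, the deepest library, and 3.72% in mannitol replicate 1. Summed over the 9 libraries, the limit is 81 reads against 4034 of miR-26b-5p, or 2.01%. For miR-26a the limit is 162 reads over both passengers against 36126 of miR-26a-5p, or 0.448%. Among other hairpins with both arms in the tables, 93 had a more abundant arm with at least the summed count of miR-26b-5p. In 37 of these the other arm was also unlisted in all 9 libraries, and in 32 it was listed in all 9. Of 42 hairpins at or above the summed count of miR-26a-5p, 12 had an unlisted other arm, among them those of let-7g, miR-24-1 and miR-192. Hairpins that share a guide were each given all its counts, so they are not separate cases. The miR-24-2 hairpin, which shares the guide of miR-24-1, had 6823 counts of its other arm. The median other arm of those 42 hairpins reached 0.106% of its partner with a listed 0 taken as 0, which is below the limit for miR-26a. A strand ratio like that median would therefore not be detectable at this depth.

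**Figure D1:**
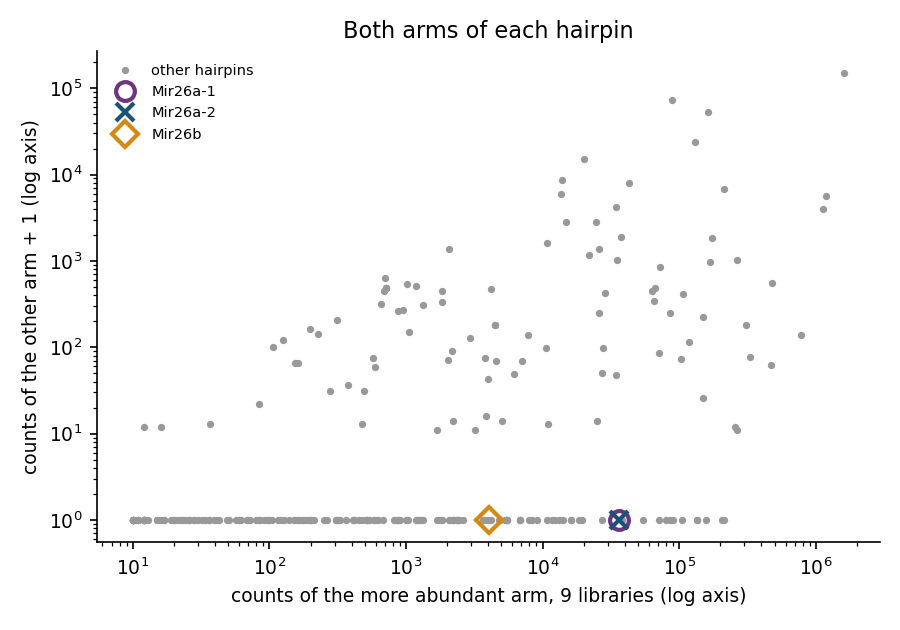
Counts of the more abundant arm (x axis, log) and of the other arm plus 1 (y axis, log), summed over 9 libraries, for each hairpin with both arms in the tables. The 3 miR-26 hairpins lie on the bottom line, where the other arm is listed at 0, at 4034 guide counts for Mir26b and 36126 for Mir26a-1 and Mir26a-2, which share their guide.

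The guide miR-26a-5p was the main form of the family. In high glucose replicates 1, 2 and 3 mmu-miR-26a-5p had 2802, 3401 and 2440 CPM. With mannitol it had 2496, 3916 and 1867 CPM, and in normal glucose 2078, 2448 and 3510 CPM. The highest and the lowest of the 9 values were both mannitol libraries, replicates 2 and 3, and the ranges of all 3 groups overlapped.

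The second guide, miR-26b-5p, has the same seed and was the rarer form, with 10.04% of the summed counts of both guides. The level of mmu-miR-26b-5p was 352, 424 and 304 CPM in high glucose replicates 1, 2 and 3. With mannitol it had 182, 451 and 164 CPM, and in normal glucose 200, 307 and 443 CPM. Mannitol replicate 2 was again the highest library and mannitol replicate 3 the lowest, and the groups overlapped. Counts behind these values were 2032 to 6230 for miR-26a-5p and 242 to 776 for miR-26b-5p. Wilson 95% intervals had half-widths of 2.48% to 4.34% of the value for miR-26a-5p and 7.04% to 12.6% for miR-26b-5p. They cover counting error only, since reads amplified by PCR without molecular identifiers are not independent molecules.

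As group means, miR-26a-5p stood at 2881 ± 486 CPM for high glucose, 2759 ± 1050 CPM for mannitol and 2678 ± 743 CPM for normal glucose (SD, n = 3 per group). The order was high glucose, mannitol, normal glucose, and no neighbours in it differed beyond their spread. For miR-26b-5p the means were 360 ± 60.4 CPM for high glucose, 266 ± 161 CPM for mannitol and 317 ± 122 CPM for normal glucose (SD, n = 3 per group). Here the order was high glucose, normal glucose, mannitol, again with no neighbours apart by more than their spread. The highest mannitol library had 2.75 times the miR-26b-5p level of the lowest, against 1.39 times in high glucose and 2.21 times in normal glucose. Fewer vesicles from a source and less RNA per vesicle cannot be told apart in such bulk libraries. Summed, the guides took 0.203% (mannitol replicate 3) to 0.437% (mannitol replicate 2) of all miRNA counts.

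**Figure D2:**
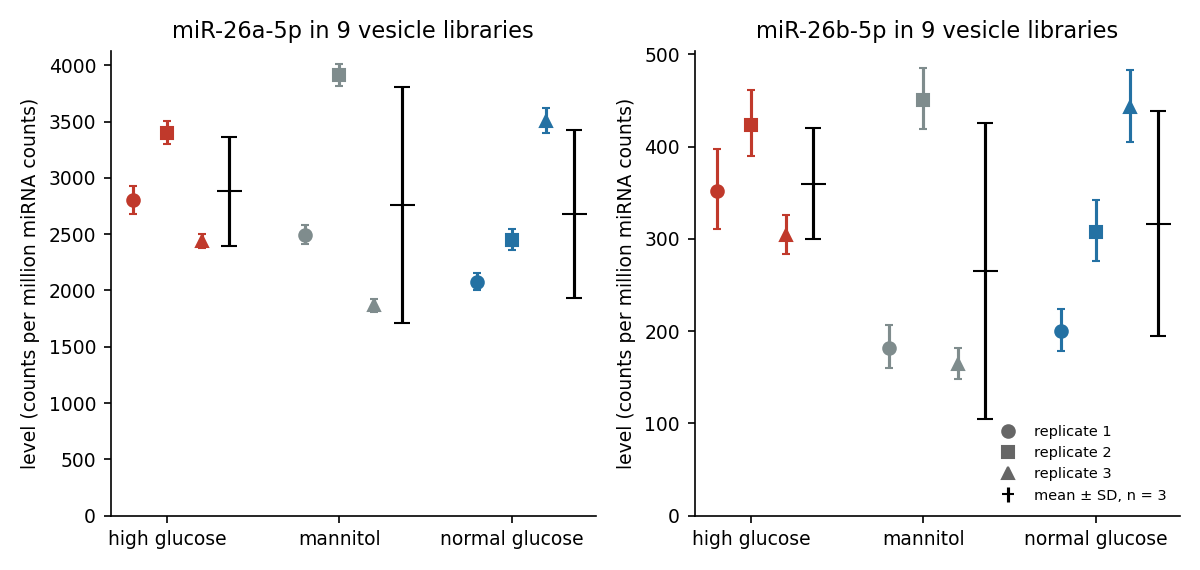
Level of miR-26a-5p (left) and miR-26b-5p (right) in CPM for each library of high glucose, mannitol and normal glucose, with Wilson 95% intervals on the points and mean ± SD (n = 3) in black. Mannitol replicate 2 is the highest library in both panels, at 3916 and 451 CPM, and mannitol replicate 3 the lowest, at 1867 and 164 CPM.

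By mean CPM over all 9 libraries, miR-26a-5p took position 51 and miR-26b-5p position 115 of the 479 miRNAs listed in any library. The mean of miR-26a-5p was 2773 CPM, with the epithelial miR-200b-3p next above at 2799 CPM and miR-185-5p next below at 2768 CPM. These neighbours were higher than miR-26a-5p in 6 and 4 of 9 libraries, so their order is not separated from it. The mean of miR-26b-5p was 314 CPM, between miR-199b-3p, a mesenchymal miRNA, at 316 CPM and miR-429-3p, a miR-200 family member, at 305 CPM. Each of these was higher than miR-26b-5p in 4 of 9 libraries. At position 113, miR-199a-3p had the same mean as miR-199b-3p and the same log2 fold change in high glucose against normal glucose (0.17). The upper neighbour is therefore not particular to miR-199b-3p. Within single libraries the position of miR-26a-5p ran from 42 in mannitol replicate 2 to 60 in mannitol replicate 3.

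**Figure D3:**
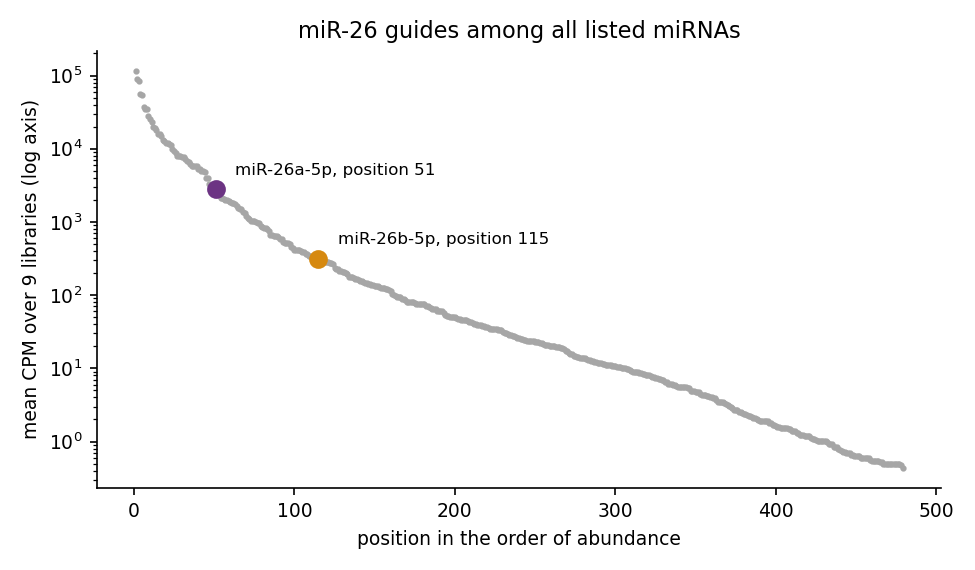
Mean CPM over 9 libraries (y axis, log) of each listed miRNA against its position in the order of abundance (x axis). The 2 marked guides are miR-26a-5p at position 51 and miR-26b-5p at position 115.

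The libraries held 725211 to 2553690 miRNA counts, and both extremes were high glucose libraries, replicates 1 and 3. Summed levels of blood, immune and liver miRNAs were 13495 to 25642 CPM in high glucose, 15507 to 33520 CPM for mannitol and 15523 to 30463 CPM for normal glucose, and 3 of the 8 had counts in every library. Of the others, 4 were listed in some libraries and miR-142a-3p in none, while the other arm of its hairpin, the leukocyte marker miR-142a-5p, had 185 counts in all. Muscle and neural miRNAs summed to 2991 to 4181 CPM in high glucose, 3601 to 7906 CPM for mannitol and 3712 to 5851 CPM for normal glucose, with 6 of 7 in every library. Because the miR-26a-5p sequence is conserved in cattle, its counts do not separate podocyte reads from reads of the serum, and the part of serum in its level was not tested.

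The first comparison set high glucose against normal glucose, the treatment as a whole. The log2 fold change of miR-26a-5p was 0.22 (SE 0.34, 95% interval -0.50 to 0.94), and that of miR-26b-5p was 0.30 (SE 0.43, 95% interval -0.62 to 1.21). Both had an adjusted p of 0.995 in edgeR, a test for count data, fitted jointly to all 9 libraries over 361 miRNAs. Each guide was higher in high glucose in 5 of 9 pairs of libraries. As linear folds the intervals run from 0.707 to 1.92 for miR-26a-5p and from 0.652 to 2.32 for miR-26b-5p. Of all tested miRNAs, 0% passed the adjusted threshold of 0.05 in edgeR, and 2.77% (10) had an unadjusted p under 0.05, neither guide among them. DESeq2 and limma-voom also called 0. Groups did not overlap for 9.42% of tested miRNAs, 2.49% higher and 6.93% lower in high glucose, and for 0 of the 2 guides. The median log2 fold change of all tested miRNAs was -0.04. With the replicate number as a block the guides had 0.19 (adjusted p = 0.883 in edgeR) and 0.30 (adjusted p = 0.871 in edgeR), and 5.26% of tested miRNAs (19) had an unadjusted p under 0.05, neither guide among them.

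The second comparison set high glucose against mannitol, with osmolality matched. The value of miR-26a-5p was 0.20 (SE 0.34, 95% interval -0.52 to 0.92) with an adjusted p of 0.948 in edgeR. For miR-26b-5p it was 0.55 (SE 0.43, 95% interval -0.37 to 1.47) with an adjusted p of 0.786 in edgeR, and high glucose was higher in 6 of 9 pairs of libraries. In this comparison 0% of tested miRNAs passed in edgeR and 5.26% (19) had an unadjusted p under 0.05, neither guide among them. DESeq2 called 1, miR-182-5p, and limma-voom 0. Groups did not overlap for 0 of the 2 guides, against 10.2% of tested miRNAs, 2.49% higher and 7.76% lower in high glucose. With the replicate number as a block miR-26a-5p had 0.24 (adjusted p = 0.763 in edgeR) and miR-26b-5p 0.69 (adjusted p = 0.333 in edgeR). In that fit 14.4% of tested miRNAs (52) had an unadjusted p under 0.05, miR-26b-5p among them. The values depended on mannitol replicate 2. Without it miR-26a-5p had 0.68 (adjusted p = 0.172 in edgeR) and miR-26b-5p 1.32 (adjusted p = 0.0531 in edgeR). Leaving it out also moved many other miRNAs. Of 372 tested then, 96 had an unadjusted p under 0.05, both guides among them, against 19 with all libraries. Scaled to the constant behind the deposited RPM values in place of TMM, the median of all tested miRNAs was -0.59, with miR-26a-5p at -0.30 and miR-26b-5p at 0.07. Relative to that median they lay higher, by 0.29 and 0.67.

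The last comparison set mannitol against normal glucose, which differ in osmolality but not in glucose. The log2 fold change was 0.02 (SE 0.34, 95% interval -0.70 to 0.74) for miR-26a-5p and -0.25 (SE 0.43, 95% interval -1.17 to 0.66) for miR-26b-5p. Both adjusted p-values were 0.9996 in edgeR. In this comparison 0% of tested miRNAs passed in edgeR and 1.39% (5) had an unadjusted p under 0.05, neither guide among them. DESeq2 and limma-voom also called 0. Groups did not overlap for 0 of the 2 guides, against 3.32% of tested miRNAs, 2.22% higher and 1.11% lower with mannitol. With the replicate number as a block, which here rests on no pairing, the values were -0.055 and -0.39, and 4.71% of tested miRNAs (17) had an unadjusted p under 0.05, neither guide among them. Without mannitol replicate 2 the values were -0.36 for miR-26a-5p and -0.94 for miR-26b-5p, with adjusted p = 0.786 and 0.458 in edgeR. Of 372 miRNAs tested then, 36 had an unadjusted p under 0.05, miR-26b-5p among them, against 5 with all libraries. Scaled to the library constant the guides had 0.47 and 0.20, beside a median of 0.50 for all tested miRNAs. The mannitol libraries enter both this comparison and the one before, so these values are not separate evidence.

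**Figure D4:**
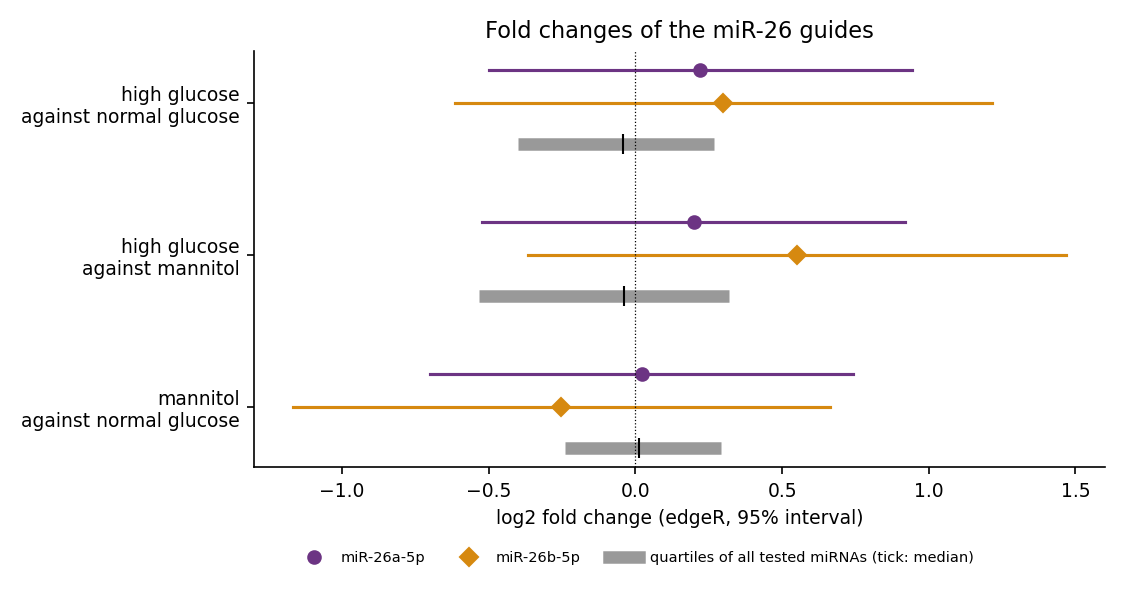
Log2 fold change of miR-26a-5p and miR-26b-5p (points, edgeR) with 95% intervals in the 3 comparisons, above the quartiles and median of all 361 tested miRNAs in grey. Each of the 6 intervals includes 0, and the point farthest from 0 is miR-26b-5p in high glucose against mannitol, at 0.55.

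The ratio of both guides within a library needs no scaling and compares 2 sequences that differ by 2 substitutions and 1 base of length. Of the reads of both guides, miR-26b-5p took 11.2%, 11.1% and 11.1% in high glucose replicates 1, 2 and 3. With mannitol it took 6.80%, 10.3% and 8.07%, and in normal glucose 8.78%, 11.2% and 11.2%. The high glucose libraries lay within 1.01 times of each other, although their guide levels spanned 1.39 times, and the mannitol libraries lay below all of them. The Wilson 95% interval of mannitol replicate 1 was 6.02% to 7.67% and that of mannitol replicate 2 was 9.63% to 11.1%. The lower bounds in high glucose were 9.92% to 10.4%, so mannitol replicates 1 and 3 lay below them (replicate 3 had 7.32% to 8.89%) and mannitol replicate 2 overlapped them. Normal glucose replicate 1, at 7.89% to 9.76%, also lay below the high glucose bounds. These intervals cover counting error only.

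For each count of miR-26b-5p there were 8.01 ± 0.034 counts of miR-26a-5p in high glucose, 11.3 ± 2.51 with mannitol and 8.76 ± 1.41 in normal glucose (SD, n = 3 per group). The SD in high glucose is smaller than the counting error of its libraries. The mean log2 ratio of miR-26b-5p over miR-26a-5p in high glucose minus that with mannitol was 0.47, with high glucose higher in 9 of 9 pairs of libraries. The two-sided exact permutation p was 0.1, the smallest that 3 against 3 libraries can give, and 0.3 after Benjamini-Hochberg adjustment over the 3 ratio comparisons. Levels of single miRNAs did not overlap between these groups for 10.2% of tested miRNAs. No such share was computed over other ratios, so the 9 of 9 pairs have no reference. High glucose minus normal glucose was 0.12 (exact permutation p = 1), with high glucose higher in 3 of 9 pairs. Mannitol minus normal glucose was -0.35 (exact permutation p = 0.2), with mannitol higher in 1 of 9 pairs. None of these differences reached the threshold, which the design cannot reach with this test.

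**Figure D5:**
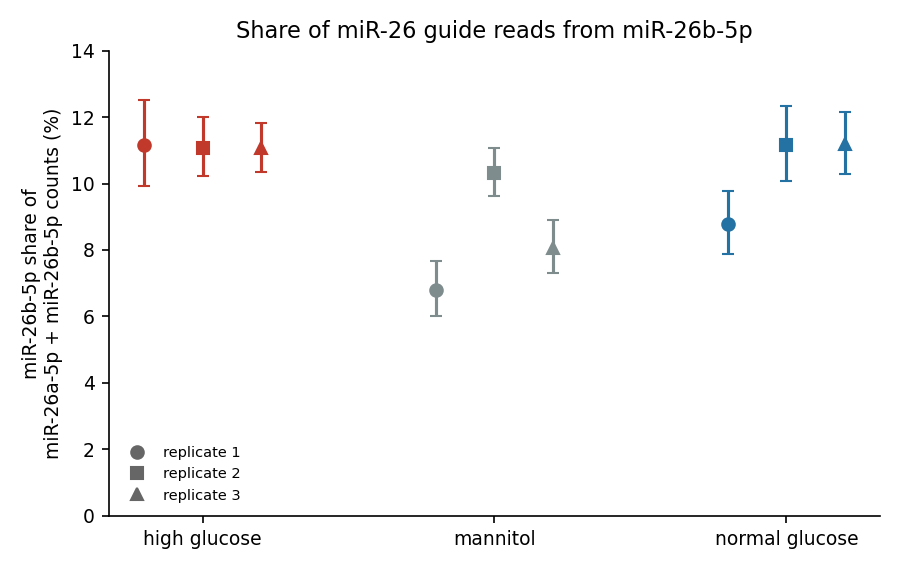
Share of miR-26b-5p among the counts of miR-26a-5p and miR-26b-5p (y axis, %) in each library of high glucose, mannitol and normal glucose, with Wilson 95% intervals. The 3 high glucose libraries sit at 11.1% to 11.2%, and mannitol replicates 1 and 3 are the lowest, at 6.80% and 8.07%.

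Across the 9 libraries the guides varied together. Their log2 TMM-scaled levels had a Pearson's r of 0.94 and a Spearman's rho of 0.92 (n = 9 libraries). Without mannitol replicate 2 and high glucose replicate 2, the 2 libraries farthest from the median of miR-26a-5p, r was 0.95 and rho 0.86. Values of 1 library share its depth and scaling, so these are descriptions.

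Among 259 other miRNAs listed in all 9 libraries, miR-26b-5p was the one most like miR-26a-5p. Next came let-7g-5p (r = 0.93), a member of the let-7 family of differentiation-associated miRNAs, and miR-218-5p (r = 0.93), which is encoded in introns of the Slit genes. For miR-26b-5p the order was let-7g-5p (r = 0.96), miR-26a-5p (r = 0.94) and miR-218-5p (r = 0.94). The median r over all pairs of such miRNAs was 0.0033. That median covers unselected pairs, whereas the values above are the highest of 259 for each guide, so it is no reference for them.

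The level of let-7g-5p was 8318, 9439 and 7927 CPM in high glucose replicates 1, 2 and 3, 6719, 10046 and 5428 CPM for mannitol, and 6474, 8142 and 8698 CPM in normal glucose. Its log2 fold changes were 0.24 (SE 0.31), 0.35 (SE 0.31) and -0.11 (SE 0.31) for high glucose against normal glucose, high glucose against mannitol and mannitol against normal glucose. As with the guides, for likeness to which it was picked, mannitol replicate 2 was its highest library and mannitol replicate 3 its lowest. For miR-218-5p, picked by the same rule, the highest library was normal glucose replicate 3 and the lowest normal glucose replicate 1, at 625 and 266 CPM. Mannitol replicates 2 and 3 stood close to these, at 620 and 267 CPM. In the same order of comparisons miR-218-5p had 0.26 (SE 0.42), 0.33 (SE 0.42) and -0.07 (SE 0.42).

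Within groups, the SD of log2 levels was 0.46 for miR-26a-5p and 0.65 for miR-26b-5p, beside a median of 0.43 over the 260 miRNAs listed in all libraries. For miR-26b-5p 84.2% of those miRNAs had a smaller SD, and for miR-26a-5p 55.0% did.

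Other miRNAs with related roles were read from the same fit, and no list member passed in any comparison of that fit. The lists overlap in part, since miR-30c-5p and miR-23b-3p, among others, stand on more than 1. Of 41 guide strands from introns of other protein-coding genes, 31 were tested. In high glucose against normal glucose 19 had positive and 12 negative values (median 0.14), and in high glucose against mannitol 22 and 9 (median 0.32), where 46.5% of all tested miRNAs had positive values in each. For mannitol against normal glucose 14 had positive and 17 negative values (median -0.07, and 52.1% positive among all tested). The most abundant were miR-378a-3p, from a Ppargc1b intron, at 0.17 (SE 0.26) in high glucose against normal glucose, and miR-27b-3p at 0.50 (SE 0.29). At an unadjusted p under 0.05 the list held 1 of 31 in high glucose against normal glucose, miR-140-3p (0.63), beside 2.77% of all tested miRNAs. In high glucose against mannitol it held 3 of 31, miR-16-5p (0.83), miR-7a-5p (0.71) and miR-423-5p (-0.85), beside 5.26% of all tested.

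Of 9 other miRNAs known to repress Ezh2, 8 were tested. Positive values were found for 3 in high glucose against normal glucose (median -0.18), 4 in high glucose against mannitol (median -0.12) and 4 in mannitol against normal glucose (median 0.08). Among all tested miRNAs 46.5%, 46.5% and 52.1% had positive values there. The most abundant of the list were let-7b-5p and let-7c-5p, at -0.64 (SE 0.32) and -0.32 (SE 0.29) in high glucose against normal glucose, where both miR-26 guides had positive values.

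Of 11 podocyte and glomerular miRNAs, 9 were tested. Positive values were found for 7 in high glucose against normal glucose (median 0.15), 8 in high glucose against mannitol (median 0.34) and 3 in mannitol against normal glucose (median -0.07). For this list and those that follow, the shares positive among all tested miRNAs were 46.5%, 46.5% and 52.1%. The most abundant of this list were miR-30a-5p and miR-30d-5p of the podocyte-enriched miR-30 family. They had 0.79 (SE 0.32) and 0.17 (SE 0.27) in high glucose against normal glucose, and 0.75 (SE 0.32) and 0.34 (SE 0.27) in high glucose against mannitol. Of this list miR-30a-5p alone had an unadjusted p under 0.05, in both of these comparisons, with adjusted p = 0.995 and 0.704 in edgeR. Among all tested miRNAs 2.77% and 5.26% had an unadjusted p under 0.05 in these comparisons. Among blood, immune and liver miRNAs 6 were tested, and 2 had positive values in each of the 3 comparisons, with medians of -0.16, -0.39 and -0.05. Of these the erythroid miR-486a-5p had -0.75 (SE 0.36) in high glucose against normal glucose and -0.88 (SE 0.36) in high glucose against mannitol. In the second it had an unadjusted p under 0.05, beside 5.26% of all tested miRNAs. Its mean over all 9 libraries, 5879 CPM, was also that of miR-486b-5p, so its values may not be particular to miR-486a-5p. The liver miRNA miR-122-5p had -0.29 (SE 0.36) and -0.20 (SE 0.36) in the same 2 comparisons. All 7 muscle and neural miRNAs were tested. Positive values were found for 2 in high glucose against normal glucose (median -0.24), 1 in high glucose against mannitol (median -0.56) and 5 in mannitol against normal glucose (median 0.55). Their most abundant members were miR-206-3p and miR-128-3p, at -0.50 (SE 0.30) and -0.46 (SE 0.33) in high glucose against normal glucose. In mannitol against normal glucose they had -0.45 (SE 0.30) and -0.19 (SE 0.33), opposite in sign to the list's median. The part of these miRNAs in the miR-26 values was not tested.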

How the data were processed

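The deposited tables give whole-number counts per miRNA identifier for each of 9 libraries, per the file headers, and these counts were used as deposited. The authors' second column holds RPM values, each a count over 1 constant of its library. The miRNA counts came to 3.43% to 9.71% of that constant, and no source used here says what it counts. Tools named in the submitters' processing notes are bcl2fastq and BWA, with the build mm10, while their versions and settings were not found in the sources used here. CPM were computed on the sum of all miRNA counts. Fold changes were fitted with edgeR 4.0.16 under R 4.3.3 (TMM, expression filter by group, robust quasi-likelihood test, joint fit of 3 groups, Benjamini-Hochberg over 361 miRNAs, threshold 0.05), and the fit was tested on simulated data. DESeq2 1.42.0 and limma-voom (limma 3.58.1) were alternatives, beside other scalings, no expression filter, listed zeros set to 9 reads, a replicate block and leaving out each library. Libraries of a group differed by a chi-square of 88.1 or more per degree of freedom, so none repeated another library of its group. Libraries of different groups were not compared by this check. Groups follow the treatment label, and a title with no number was taken as replicate 1. The labels do not say what the numbers mark. Deviations from group means of same-numbered libraries correlated at 0.13 to 0.31 between high glucose and normal glucose and at 0.19 to 0.49 between high glucose and mannitol. Blocked values therefore stand beside those comparisons. Differently numbered libraries were not correlated in this way, so these values have no reference and do not establish a pairing. Between mannitol and normal glucose the same-numbered libraries correlated at -0.083 to 0.14, so the numbers were not taken to pair those groups.

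Named miRNAs were the members, the miRNAs next in abundance, the 3 most correlated with each guide, and from each list the 2 most abundant and those at an unadjusted p under 0.05. Members and lists were chosen with earlier results of these data known. The result of 1 further list is not reported here. The planned ratio of miR-26b-3p to miR-26b-5p had no value, since miR-26b-3p is listed at 0 (taken as 0 to 9 reads) throughout.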

Additional observations from a re-analysis of the deposited data

How the results depend on the processing

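Neither guide passed in any of 16 alternatives per comparison. In high glucose against normal glucose both had positive values with 1 library left out, from 0.02 to 0.36 for miR-26a-5p and from 0.04 to 0.50 for miR-26b-5p. In high glucose against mannitol these ranges were -0.020 to 0.68 (below 0 without high glucose replicate 2 or mannitol replicate 3) and 0.28 to 1.32. In mannitol against normal glucose they were -0.36 to 0.24 (below 0 without mannitol replicate 2 or normal glucose replicate 1) and -0.94 to 0.017 (above 0 without mannitol replicate 1 or 3). Values of miR-26a-5p changed sign when scaled to the library constant (-0.30, high glucose against mannitol) and with limma-voom (-0.052, mannitol against normal glucose), and that of miR-26b-5p when scaled to the library constant (0.20, mannitol against normal glucose). The cause was not tested. The log2 ratio of the guides with 1 library left out was -0.011 to 0.18, 0.31 to 0.64 and -0.52 to -0.20 in the same order of comparisons, the first below 0 without normal glucose replicate 1. Counts of called miRNAs were 0 in edgeR, with 10, 19 and 5 at an unadjusted p under 0.05, and 2, 3 and 1 without the expression filter. In high glucose against mannitol DESeq2 called 1, and leaving out 1 library gave 0 to 1 (1 without mannitol replicate 2). No call was a miR-26 guide. The calls without the filter included miR-9-5p and miR-1a-3p of the muscle and neural list. There miR-9-5p had 2.37 in high glucose against normal glucose. The values of miR-1a-3p were -2.78 in high glucose against mannitol and 2.08 in mannitol against normal glucose. For miR-26b-3p no alternative gave a value.

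With a replicate block, whose pairing the labels do not state, miR-26b-5p had 0.69 in high glucose against mannitol (unadjusted p = 0.0382, adjusted p = 0.333 in edgeR). In mannitol against normal glucose, where the numbers were not taken to pair the groups, miR-26a-5p had -0.055 with the block. Called miRNAs were 0 in all comparisons, with 19, 52 and 17 at an unadjusted p under 0.05, and the block changed no call at the adjusted threshold.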
